A study of Mus musculus with 14 samples.

Results

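The inducible heat shock chaperones were taken as 10 genes named by symbol, Hspa1a, Hspa1b, Hspa8, Hsph1, Hsp90aa1, Hspb1, Cryab, Bag3, Dnajb1 and Hspd1. All 10 were among the 55291 gene symbols of the count table and among the 21761 genes that passed the filter on low counts. The membership rule uses symbols only, but the set was proposed with earlier results of these data known. Tibia RNA of wild-type female C57Bl/6 mice was sequenced in 14 libraries, of mice that had sham surgery or ovariectomy (OVX), the removal of the ovaries. The sham group (n = 3) is labelled as a control with no agent named. The other groups had ovariectomy and then phosphate-buffered saline (OVX-PBS, n = 3), zoledronic acid (OVX-ZA, n = 3), hippuric acid (OVX-HA, n = 3) or 3'(3'hydroxyphenyl) propionic acid (OVX-PPA, n = 2). Dosing started 2 to 4 days after surgery and lasted 8 weeks. Neither doses nor the age of the mice are stated in the labels. Hippuric acid and 3'(3'hydroxyphenyl) propionic acid are phenolic acid metabolites, and zoledronic acid is a bisphosphonate that blocks bone resorption by osteoclasts. The study asked whether the phenolic acids protect bone after loss of ovarian steroids.

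Heat shock chaperones bind unfolded proteins, keep them from aggregating and help them to refold. In stressed cells the transcription factor HSF1 binds heat shock elements, arrays of short inverted GAA and TTC units in promoters, and switches on Hspa1a, Hspa1b, Hspb1, Dnajb1, Hsph1 and Bag3. Hspa8 and Hspd1 are made in unstressed cells as well, and Cryab and Hspb1 are abundant in striated muscle, which lies against bone.

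The sequences before the start sites of Hspa1a, Hspa1b and Hspb1 are shown because these 3 genes differed most between the groups, and because the Hspa1 pair shares most of its sequence. They come from RefSeq on GRCm38.p6, the build of the deposited data, as the 250 bases before each annotated start, 5′ to 3′ on the gene's strand. Capitals mark every match to GAANNTTC or TTCNNGAA, the shortest pair of inverted units. Each of these patterns is its own reverse complement, so both strands were covered.
Hspa1a, chr17:34972157-34972406, minus strand: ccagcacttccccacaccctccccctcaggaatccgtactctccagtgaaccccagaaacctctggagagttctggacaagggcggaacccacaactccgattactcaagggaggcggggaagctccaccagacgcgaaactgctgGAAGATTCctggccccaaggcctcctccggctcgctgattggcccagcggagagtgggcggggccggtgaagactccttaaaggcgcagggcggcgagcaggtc
Hspa1b, chr17:34959239-34959488, minus strand: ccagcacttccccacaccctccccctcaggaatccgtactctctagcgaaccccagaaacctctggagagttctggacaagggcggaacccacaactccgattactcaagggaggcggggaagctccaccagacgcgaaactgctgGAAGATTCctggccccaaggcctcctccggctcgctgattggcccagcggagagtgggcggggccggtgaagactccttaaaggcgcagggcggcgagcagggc
Hspb1, chr5:135887669-135887918, plus strand: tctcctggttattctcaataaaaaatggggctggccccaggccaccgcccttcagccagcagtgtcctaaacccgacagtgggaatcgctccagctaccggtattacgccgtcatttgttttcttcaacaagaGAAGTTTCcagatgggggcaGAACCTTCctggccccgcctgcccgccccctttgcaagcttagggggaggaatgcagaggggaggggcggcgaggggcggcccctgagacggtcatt

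Hspa1a and Hspa1b each held 1 pair of units, at -104 to -97 from the start, and Hspb1 held 2, at -117 to -110 and at -97 to -90. Over the 300-base windows of the table, 250 bases before and 50 after the start, Hspa1a and Hspa1b differed at 4 positions. Counted from the 5′ end of the window, these were C44T, T47C, T249G and C276T, with the Hspa1a base first. Of the 10 members, 7 had a window in the table, 10 windows in all. A pair of units was present in 6 of these 7 genes, Hspa1a, Hspa1b, Hspb1, Bag3, Hsph1 and Hspd1, and in none of the windows of Dnajb1. Among all 27025 genes in the table, 17% held such a pair, and 15.1% of the 32851 windows did. Hspa8, Hsp90aa1 and Cryab were not matched.

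Longer runs are shown for Hsph1 and Hspd1, in which the units continue. The pair of Bag3 is shown beside them and ends at the last base of its window. A run of at least 3 alternating units, GAANNTTCNNGAA or TTCNNGAANNTTC, was found in Hsph1 and Hspd1, against 0.662% of all genes in the table. The run of Hsph1 and the pair of Bag3 lay after the start, at 37 to 49 bases from the first annotated start of Hsph1 (16 to 28 from the second) and at 43 to 50 from that of Bag3. Hsph1 also held a pair before the start, at -33 to -26 from the first start and -54 to -47 from the second. The Hspd1 run lay at -144 to -127 from its second annotated start, and the window of its first start held no match.
Hsph1, chr5:149636287-149636305, minus strand, 3 units: gcagaTTCTGGAAAGTTCt
Hspd1, chr1:55088056-55088079, minus strand, 4 units: gccTTCCGGAAGGTTCTAGAAcgg
Bag3, chr7:128523617-128523632, plus strand, 2 units: tgggaccaGAAGTTTC
The Hspd1 run also lies in the window of Hspe1, which encodes the co-chaperonin of HSP60. The annotated start of Hspe1 lies 111 bases from that of Hspd1, on the other strand. These matches describe the letters only, and binding of HSF1 was not measured.

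Library totals ran from 11896820 to 35418060 estimated counts, with the lowest totals in OVX-ZA (11896820 to 25129017). Levels are given as CPM, the counts-per-million of a library after TMM scaling, and differences as log2 differences from the edgeR fit with their SE. Bone was present in every library: 12 of 12 osteoblast and osteocyte markers and 8 of 8 osteoclast markers were above 0 throughout. Some libraries stood apart. OVX-PBS replicate 1 and OVX-HA replicate 2 had few central nervous system transcripts, with a mean log2 CPM over 17 markers of 3.27 and 2.88 against at least 6.05 elsewhere, and 16 of the 17 markers were above 0 in every library. Sham replicate 3 and OVX-ZA replicates 1 and 2 carried lymph node transcripts, on a list of 6 markers of which Glycam1 was at 0 in 2 libraries and Madcam1 in 5. Skeletal muscle markers were above 0 in every library for 18 of 18 genes. Their summed share of the counts was 4.47 to 8.80% after sham surgery. After ovariectomy it was 6.08 to 9.52% with PBS, 5.60 to 9.33% with HA, 6.39 to 6.73% with PPA and 6.66 to 9.53% with ZA. In bulk bone, fewer cells of a type and less RNA per cell cannot be told apart.

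The 10 chaperones together took 0.204 to 0.221% of the counts after sham surgery. After ovariectomy they took 0.207 to 0.241% with PBS, 0.217 to 0.225% with HA, 0.191 to 0.206% with PPA and 0.176 to 0.211% with ZA. Per kilobase of exon, the levels (median CPM per kilobase over the 14 libraries) spanned a wide range. Cryab, the small heat shock protein alpha B-crystallin, was the highest at 370.3, followed by the constitutive HSP70 Hspa8 at 168 and the HSP90 alpha gene Hsp90aa1 at 85.5. Hspd1 at 60.6, Bag3 at 51.9 and Hspb1 at 49.4 were in the middle. Hsph1 at 14, Dnajb1 at 10.6, Hspa1a at 6.47 and Hspa1b at 5.55 were the lowest. On this scale the inducible HSP70 genes lay below Hspa8 in every library. Neighbours in this order overlapped over the libraries, except Cryab and Hspa8, Hspa8 and Hsp90aa1, and Hspb1 and Hsph1. Hspa8 was the steadiest member, with a highest-to-lowest ratio over the libraries of 1.36, and Hspa1b the most variable, with 3.01. The SD of log2 CPM within groups ran from 0.095 for Hspa8 to 0.30 for Hspa1b, against a median of 0.19 over 11442 genes with a mean of at least 10 CPM.

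**Figure D1:**
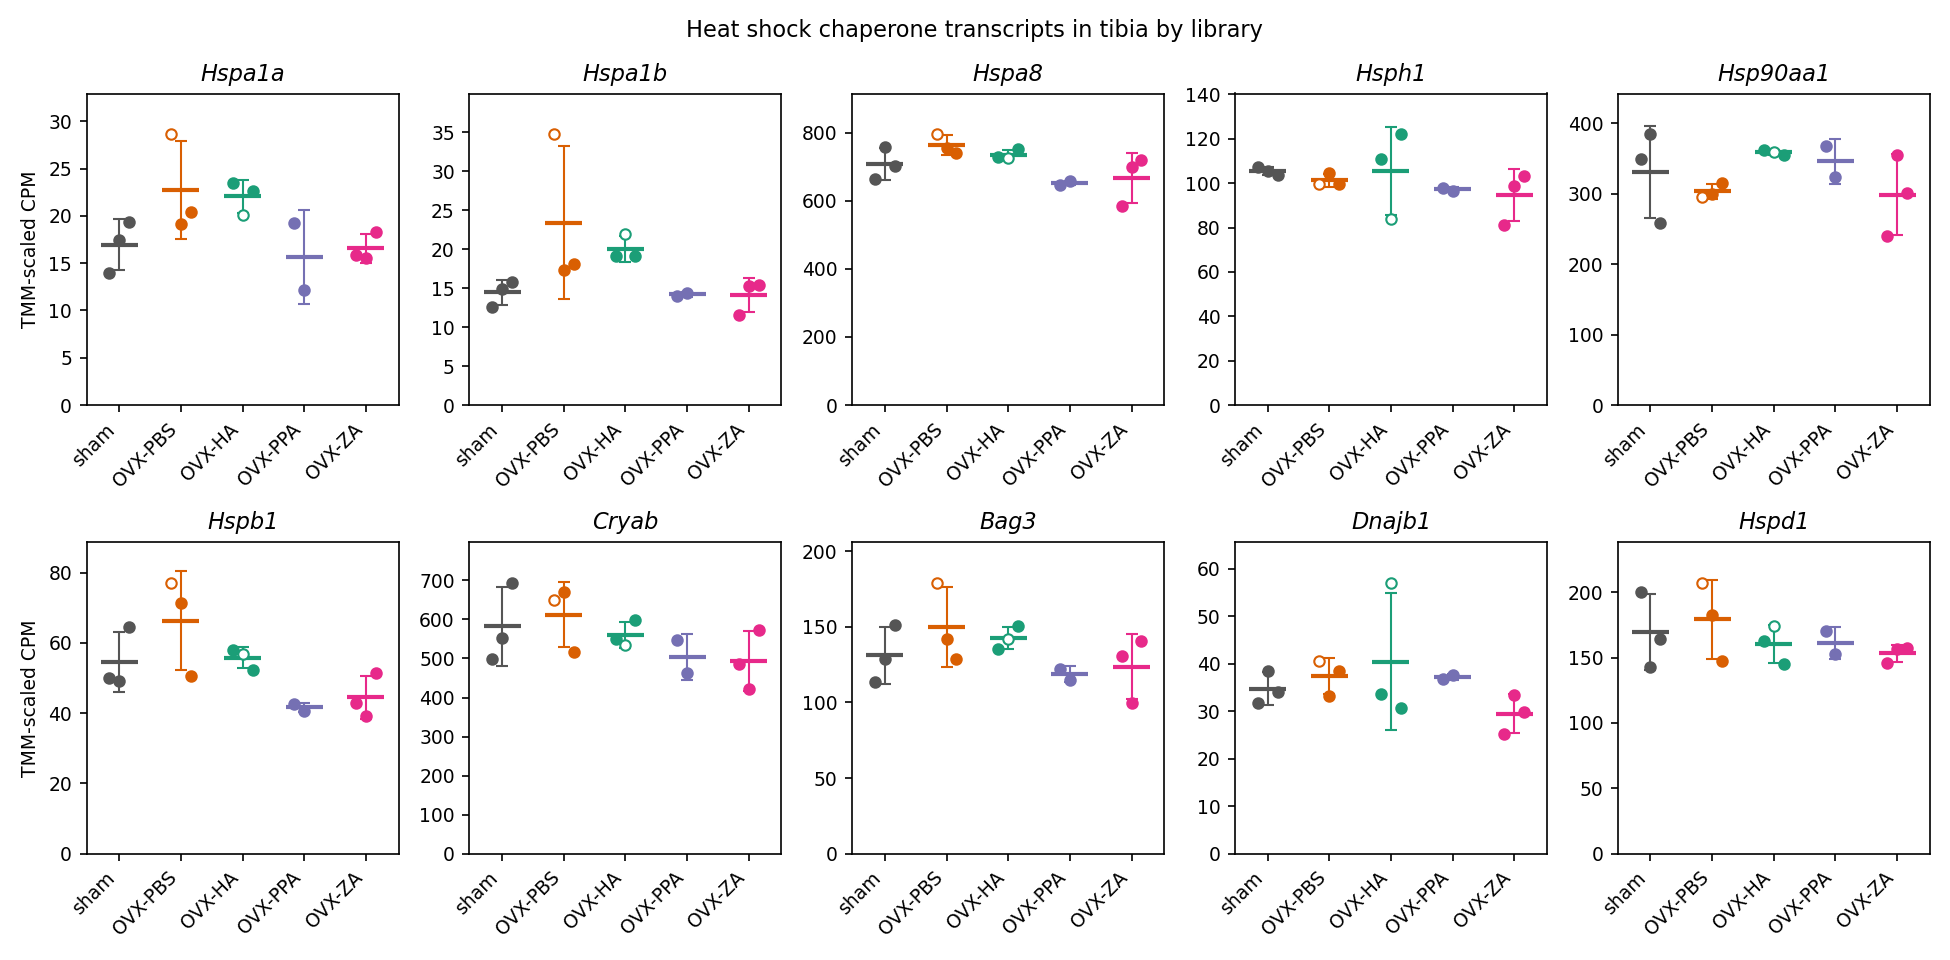
TMM-scaled CPM (vertical axes, linear and from 0) of each chaperone gene in the 14 libraries, by group; points are libraries, thick bars are group means and error bars are SDs. Open symbols are OVX-PBS replicate 1 and OVX-HA replicate 2, and OVX-PBS replicate 1 is the highest library for Hspa1a (28.6), Hspa1b (34.8) and Hspb1 (77.2).

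Hspa1a and Hspa1b encode nearly identical stress-inducible HSP70 proteins. They are single-exon genes at chr17:34969190-34972156 and chr17:34956436-34959238 on the minus strand (mm10), with annotated starts 12918 bases apart. Of all 75-base stretches, the length of the reads, 52.7% of those of Hspa1a occur in Hspa1b and 55.8% of those of Hspa1b in Hspa1a. The split of reads between them is therefore uncertain, and their sum was tested as well.

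Hspa1b stood at 12.6, 15 and 15.8 CPM after sham surgery and at 34.8, 17.4 and 18.1 in OVX-PBS replicates 1 to 3. With HA it stood at 19.1, 22.0 and 19.1, with PPA at 14 and 14.4, and with ZA at 11.5, 15.3 and 15.3. Every OVX-PBS library was above every sham, OVX-PPA and OVX-ZA library, and replicate 1 was far above the other OVX-PBS libraries. The log2 difference of OVX-PBS from sham was 0.69 ± 0.233 (SE; 95% interval 0.18 to 1.20; edgeR quasi-likelihood test, adjusted p = 0.913). Against OVX-PBS, the log2 difference was -0.72 ± 0.265 in OVX-PPA (interval -1.29 to -0.14, adjusted p = 1.00) and -0.73 ± 0.234 in OVX-ZA (interval -1.24 to -0.22, adjusted p = 0.899). In OVX-HA it was -0.22 ± 0.231, and the groups overlapped. No difference passed a false discovery rate (FDR) of 0.05. OVX-PBS replicate 1 set much of the size: without it, the difference of OVX-PBS from sham was 0.30, that of OVX-PPA from OVX-PBS -0.32, that of OVX-ZA -0.33 and that of OVX-HA 0.18.

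Hspa1a stood at 14, 17.5 and 19.3 CPM after sham surgery, at 28.6, 19.2 and 20.4 with PBS, and at 23.5, 20.1 and 22.6 with HA. With PPA it stood at 19.2 and 12.2, and with ZA at 15.8, 15.6 and 18.3. All OVX-ZA libraries were below all OVX-PBS libraries, while sham and OVX-PPA each overlapped OVX-PBS by a narrow margin. Its log2 differences were 0.42 ± 0.196 for OVX-PBS from sham (95% interval -0.006 to 0.85), -0.04 ± 0.196 for OVX-HA from OVX-PBS, -0.54 ± 0.224 for OVX-PPA (-1.02 to -0.05) and -0.45 ± 0.198 for OVX-ZA (-0.88 to -0.02). The adjusted p of edgeR was at least 0.899 for each. The OVX-PPA libraries disagreed on the size: it was -0.90 without replicate 1 and -0.23 without replicate 2. Without OVX-PBS replicate 1, the difference of OVX-PBS from sham was 0.22, that of OVX-HA 0.16, that of OVX-PPA -0.34 and that of OVX-ZA -0.25. With Hspa1a and Hspa1b summed, the log2 differences in the same order were 0.55 ± 0.193, -0.13 ± 0.192, -0.63 ± 0.219 and -0.59 ± 0.194, with adjusted p of at least 0.899. Their intervals ran from 0.13 to 0.97, -0.55 to 0.29, -1.10 to -0.15 and -1.01 to -0.16.

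Hspb1, at chr5:135887919-135889563, encodes HSP27 (mouse HSP25), a small heat shock protein that holds unfolded proteins and binds actin. It stood at 50.1, 49.1 and 64.5 CPM after sham surgery, at 77.2, 71.4 and 50.5 with PBS, and at 58.1, 56.8 and 52.4 with HA. With PPA it stood at 42.5 and 40.7, and with ZA at 43.0, 39.2 and 51.3. Both OVX-PPA libraries were below every library of sham, OVX-PBS and OVX-HA. OVX-ZA overlapped OVX-PBS through 1 library of each group. Its log2 difference was -0.67 ± 0.185 in OVX-PPA against OVX-PBS (95% interval -1.08 to -0.27, edgeR adjusted p = 1.00) and -0.57 ± 0.163 in OVX-ZA (-0.93 to -0.22, adjusted p = 0.899). In both comparisons Hspb1 had the smallest unadjusted p of the members. OVX-PBS differed from sham by 0.28 ± 0.162 (-0.07 to 0.63) and OVX-HA from OVX-PBS by -0.25 ± 0.162 (-0.60 to 0.10). Leaving out OVX-PBS replicate 1 moved the OVX-PPA difference to -0.55 and the OVX-ZA difference to -0.45. Without the 3 libraries carrying lymph node transcripts, which leaves 1 OVX-ZA library, the OVX-ZA difference was -0.37 and its unadjusted p was above 0.05. In the test of any difference among the 5 groups, 2 members, Hspb1 and Hspa1b, had an unadjusted p below 0.05, against 1.85% of all genes tested, and the adjusted p was 1.00 for every member. The only gene that passed an FDR of 0.05 in that test was Ocstamp, or 0.0046% of the genes.

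Bag3, a co-chaperone that couples HSP70 to small heat shock proteins and to autophagy, lies at chr7:128523616-128546981. It stood at 114, 129 and 151 CPM after sham surgery, 179, 142 and 129 with PBS, 136, 142 and 151 with HA, 122 and 115 with PPA, and 131, 99.7 and 141 with ZA. Both OVX-PPA libraries were below every OVX-PBS and OVX-HA library, with a log2 difference from OVX-PBS of -0.34 ± 0.178 (95% interval -0.73 to 0.05, edgeR adjusted p = 1.00). OVX-PBS differed from sham by 0.19 ± 0.158 and OVX-ZA from OVX-PBS by -0.28 ± 0.158, and these groups overlapped. Without OVX-PBS replicate 1 the 3 differences were -0.19, 0.046 and -0.13 in that order.

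Cryab, at chr9:50751325-50756636, stood at 499, 554 and 694 CPM after sham surgery and at 650.4, 669 and 517 with PBS. With HA it stood at 549, 534 and 598, with PPA at 546 and 463, and with ZA at 485, 421 and 573. OVX-PBS overlapped each of the other groups. The log2 differences from OVX-PBS were -0.13 ± 0.165 with HA, -0.28 ± 0.186 with PPA and -0.31 ± 0.165 with ZA, and every 95% interval included 0. OVX-PBS differed from sham by 0.07 ± 0.165. Hspb2, a muscle small heat shock protein gene whose annotated start lies 1029 bases from that of Cryab, averaged 25.0 ± 3.88 CPM in OVX-PBS (SD) and 20.5 ± 0.603 in OVX-PPA, with a log2 difference of -0.29 (edgeR adjusted p = 1.00).

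Hspa8, the constitutive HSP70 that also uncoats clathrin vesicles, lies at chr9:40800984-40810087. It stood at 663, 758 and 703 CPM after sham surgery and at 796, 756 and 739 with PBS. With HA it stood at 729, 724 and 752, with PPA at 647 and 657, and with ZA at 583, 699 and 720.5. The OVX-PPA libraries lay below all sham, OVX-PBS and OVX-HA libraries, and the OVX-ZA libraries below all OVX-PBS libraries. In size these differences were small, with a log2 difference from OVX-PBS of -0.23 ± 0.130 in OVX-PPA (95% interval -0.51 to 0.06) and -0.19 ± 0.116 in OVX-ZA (-0.45 to 0.06). The edgeR adjusted p was at least 0.899.

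Dnajb1, the HSP40 that stimulates HSP70 to hydrolyse ATP, lies at chr8:83608193-83612653. It ranged from 31.7 to 38.4 CPM after sham surgery, 33.2 to 40.5 with PBS, 36.8 to 37.6 with PPA and 25.2 to 33.4 with ZA. With HA it stood at 33.6, 57.1 and 30.7, so that 1 library, replicate 2, held the highest value of all 14. The log2 difference of OVX-HA from OVX-PBS was 0.11 ± 0.203, and -0.23 without that library. OVX-ZA differed from OVX-PBS by -0.34 ± 0.204 (95% interval -0.79 to 0.10), and the groups overlapped. Hsph1, the HSP110 that acts as a nucleotide exchange factor of HSP70, lies at chr5:149614287-149636376. It ranged from 81.2 to 122 CPM over all libraries, and its log2 differences in the 4 comparisons with OVX-PBS lay between -0.10 and 0.06.

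Hsp90aa1, the stress-responsive HSP90 that folds kinases and steroid receptors, lies at chr12:110690605-110702728 and had another order of groups. It stood at 349, 385 and 259 CPM after sham surgery, 295, 299 and 315 with PBS, 362, 359.9 and 355 with HA, 368 and 323 with PPA, and 239, 355 and 302 with ZA. The OVX-HA and OVX-PPA libraries were above every OVX-PBS library. The log2 difference from OVX-PBS was 0.24 ± 0.163 in OVX-HA (95% interval -0.11 to 0.60, edgeR adjusted p = 1.00) and 0.19 ± 0.181 in OVX-PPA (-0.21 to 0.58). Sham and OVX-ZA were spread over most of the range. Hspd1, the mitochondrial chaperonin HSP60, lies at chr1:55077835-55088243 and averaged 169 ± 29.0 CPM after sham surgery (SD), 179 ± 30.1 with PBS, 161 ± 14.6 with HA, 161 ± 12.4 with PPA and 153 ± 6.68 with ZA. Its groups overlapped in every comparison, with log2 differences from OVX-PBS between -0.23 and -0.15. Hspe1, its partner gene, differed from OVX-PBS by -0.13 with HA, -0.18 with PPA and -0.15 with ZA.

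**Figure D2:**
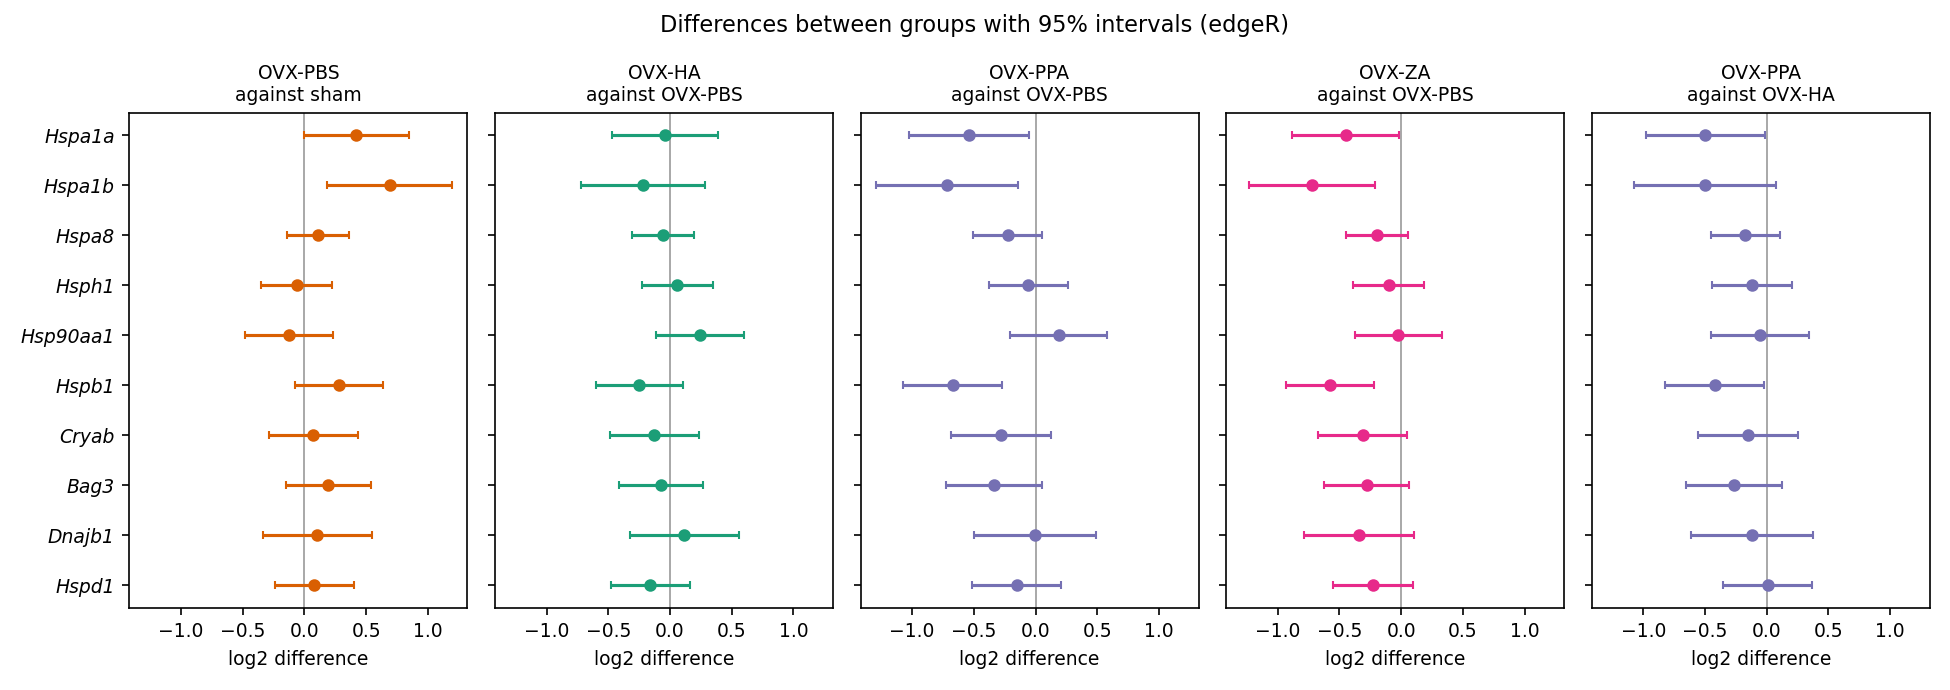
Log2 differences between groups (horizontal axes) for each chaperone gene in 5 comparisons; points are edgeR estimates from the fit over 14 libraries and bars are 95% intervals. In OVX-PPA and OVX-ZA against OVX-PBS the intervals of Hspa1a, Hspa1b and Hspb1 lie below 0, and those of the other genes include 0.

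After ovariectomy with saline, 8 of the 10 chaperones averaged higher than in sham and 2, Hsp90aa1 and Hsph1, lower, with a median log2 difference of 0.11. Over all genes tested the median was 0.0079 and 48.6% averaged lower. Hspa1b was the only member with an unadjusted p below 0.05, against 2.73% of all genes, and the only one whose groups did not overlap, against 4.03% of genes apart in that direction and 3.6% in the other. No gene passed an FDR of 0.05 (0% of 21761). Without OVX-PBS replicate 1, 7 members averaged higher, with a median of 0.05, and none had an unadjusted p below 0.05. Immediate early genes, which respond quickly to stimuli and to handling, differed in the same comparison: 24 of 25 were tested, 22 averaged higher after ovariectomy, and the list's mean log2 CPM was 4.56 to 4.95 in OVX-PBS against 4.23 to 4.47 in sham. Fos, Fosb and Nr4a1, with the smallest unadjusted p of the list, had log2 differences of 0.95, 0.81 and 0.77. Fosl1 was at 0 in 3 libraries. Muscle markers averaged higher as well, 18 of 18 with a median of 0.34. Central nervous system markers averaged lower, 17 of 17 with a median of -0.87, and lymph node markers too, 6 of 6 with a median of -0.69. The part of these lists in the chaperone differences was not tested.

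Under 3'(3'hydroxyphenyl) propionic acid, 9 of the 10 chaperones averaged lower than in OVX-PBS, with a median log2 difference of -0.25, and 8 of 10 did with DESeq2 size factors, where Dnajb1 changed sign. Over all genes tested the median was -0.018 and 53% averaged lower. Hspb1, Hspa1a and Hspa1b had an unadjusted p below 0.05, against 1.87% of all genes, and 0 members passed an FDR of 0.05 (0% of all genes). In Hspa1b, Hspb1, Bag3, Hspa8 and Hsph1 the OVX-PPA libraries lay wholly below the OVX-PBS libraries, as they did in 8.77% of all genes, and in Hsp90aa1 wholly above, as in 11.6%. Without OVX-PBS replicate 1, 8 members averaged lower, with a median of -0.19, and 1 had an unadjusted p below 0.05. Muscle markers averaged lower too, 18 of 18 with a median of -0.32, as did 21 of 24 immediate early genes with a median of -0.33. Central nervous system markers averaged higher, 17 of 17 with a median of 0.86, and in 14 of them the OVX-PPA libraries lay wholly above. Lymph node markers averaged lower, 6 of 6 with a median of -0.58. The part of these lists in the chaperone differences was not tested.

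With zoledronic acid all 10 chaperones averaged lower than in OVX-PBS, with a median log2 difference of -0.29. With DESeq2 size factors 9 of 10 did, and Hsp90aa1 changed sign. The median of all genes was -0.037 and 56.2% averaged lower. Hspb1, Hspa1a and Hspa1b had an unadjusted p below 0.05, against 3.36% of all genes, and 0 members passed an FDR of 0.05 (0% of all genes). Hspa1a, Hspa1b and Hspa8 did not overlap between the groups, against 9.96% of all genes apart in that direction and 4.21% in the other. Without OVX-PBS replicate 1 all 10 averaged lower, with a median of -0.21 and 1 unadjusted p below 0.05. Without the 3 libraries carrying lymph node transcripts 9 were lower, with a median of -0.14. Hspa8 then differed by -0.08, Cryab by -0.09 and Bag3 by -0.09, and Hsph1 changed sign, to 0.03. In that fit OVX-ZA has 1 library and its spread is taken from the other groups. Of the muscle markers 11 of 18 averaged lower, with a median of -0.021, as did 17 of 24 immediate early genes, with a median of -0.23. All 6 erythroid markers lay wholly below OVX-PBS, with log2 differences from -0.79 to -0.55. Of 12 osteoblast and osteocyte markers 9 averaged lower, 7 of them wholly below, with -1.77 for Bglap, the osteocalcin gene (edgeR adjusted p = 0.286), and -1.54 for Col1a1, a collagen gene (adjusted p = 0.447). Neutrophil markers averaged lower in 7 of 7 and adipocyte markers in 8 of 8, with medians of -0.38 and -0.26. Osteoclast markers averaged higher in 8 of 8, lymph node markers in 6 of 6 and central nervous system markers in 17 of 17, with medians of 1.35, 1.20 and 0.57. The part of these lists in the chaperone differences was not tested.

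With hippuric acid 7 of the 10 chaperones averaged lower than in OVX-PBS and 3, Hsp90aa1, Dnajb1 and Hsph1, higher, with a median log2 difference of -0.06 against 0.014 over all genes, of which 46.8% averaged lower. No member had an unadjusted p below 0.05, against 1.47% of all genes (0% passed an FDR of 0.05), and Hsp90aa1 alone did not overlap between the groups, against 2.24% of genes apart in that direction and 1.83% in the other. Without OVX-PBS replicate 1 the count was 4 lower and 6 higher. Without it and OVX-HA replicate 2, which both had few central nervous system transcripts, 5 were lower and 5 higher. Muscle markers averaged lower in 18 of 18, with a median of -0.21, and Mb, the myoglobin gene, had the smallest p of that list, with a log2 difference of -0.57. Immediate early genes averaged lower in 21 of 24, with a median of -0.18, and Fos, Jun and Nr4a1 differed by -0.59, -0.48 and -0.52. These 4 genes had an unadjusted p below 0.05 and an edgeR adjusted p of 1.00. Central nervous system markers averaged higher in 17 of 17 with a median of 0.62, and neutrophil markers lower in 7 of 7 with a median of -0.21. The part of these lists in the chaperone values was not tested. The comparisons of OVX-HA, OVX-PPA, OVX-ZA and sham with OVX-PBS share the OVX-PBS libraries, so a high value there enters all of them.

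The 2 phenolic acids can be compared without OVX-PBS. Hippuric acid carries a benzoyl group on glycine and 3'(3'hydroxyphenyl) propionic acid a hydroxyphenyl group on propionic acid, and whether their doses matched is not given. For Hspb1, Hspa1a, Hspa1b, Bag3 and Hspa8 the OVX-PPA libraries lay wholly below the OVX-HA libraries, as they did in 6.64% of all genes, and no member lay above, against 3.64%. Hspb1 averaged 41.6 ± 1.29 CPM in OVX-PPA (SD) and 55.8 ± 3.00 in OVX-HA, a log2 difference of -0.42 (95% interval -0.82 to -0.02). For Hspa1a it was -0.50 (-0.98 to -0.01), and it was -0.19 without OVX-PPA replicate 2. Hspa1b differed by -0.50 (-1.07 to 0.07), Bag3 by -0.27 and Hspa8 by -0.17, and the interval of each included 0. The intervals of Hsp90aa1 (-0.45 to 0.34), Hsph1 (-0.44 to 0.20), Dnajb1 (-0.62 to 0.37), Cryab (-0.55 to 0.25) and Hspd1 (-0.35 to 0.37) included 0. In all, 9 of 10 members averaged lower in OVX-PPA, 10 of 10 with DESeq2 size factors, with a median of -0.16 against -0.021 over all genes, of which 55.3% averaged lower. An unadjusted p below 0.05 was reached by 2 members, against 1.19% of all genes, and the adjusted p was 1.00 for each (0% of all genes passed). That count was 0 with the replicate block, without OVX-HA replicate 1, without OVX-PPA replicate 2 and without OVX-ZA replicate 1, a library outside the comparison. Muscle markers averaged lower in OVX-PPA in 15 of 18 and immediate early genes in 18 of 24, with medians of -0.10 and -0.07, and central nervous system markers higher in 14 of 17, with a median of 0.22. Their part was not tested.

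**Figure D3:**
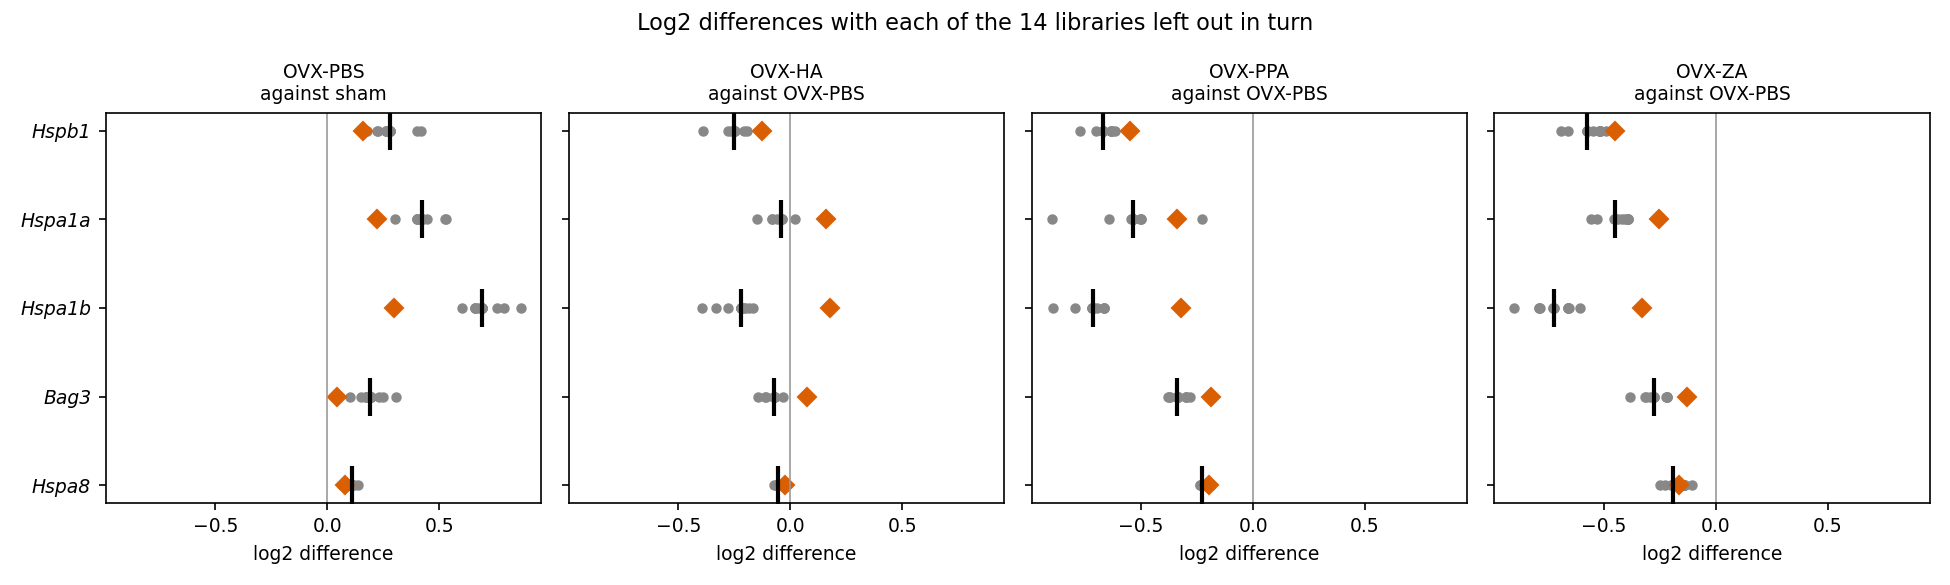
Log2 differences (horizontal axes) of Hspb1, Hspa1a, Hspa1b, Bag3 and Hspa8 in the 4 comparisons with OVX-PBS; black ticks are the values over 14 libraries, grey dots the values with 1 library left out, and orange diamonds those without OVX-PBS replicate 1. For Hspa1b the diamond stands apart from the dots, at 0.30 against 0.69 in OVX-PBS against sham and at -0.33 against -0.73 in OVX-ZA, while for Hspa8 it lies close to the tick.

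By library, OVX-PBS replicate 1 held the highest value of 6 of the 10 members, and OVX-ZA replicate 1 the lowest of 5. OVX-PBS replicate 1 also had the lowest TMM scaling factor, 0.87 against 0.95 to 1.09 in the other libraries. OVX-ZA replicate 1 had the lowest library total. The mean of the members' standardized log2 CPM was 1.33 in OVX-PBS replicate 1, 0.49 in replicate 2 and -0.03 in replicate 3, and it was 0.40 to 0.44 in the OVX-HA libraries. In OVX-PPA it was -0.20 and -0.75, in sham -0.28, 0.07 and 0.20, and in OVX-ZA -1.35, -0.67 and -0.10. The spread inside OVX-PBS and inside OVX-ZA thus covered more than 1 unit each. The highest of the members' group means was in OVX-PBS for 7 genes and in OVX-HA for Hsp90aa1, Hsph1 and Dnajb1.

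**Figure D4:**
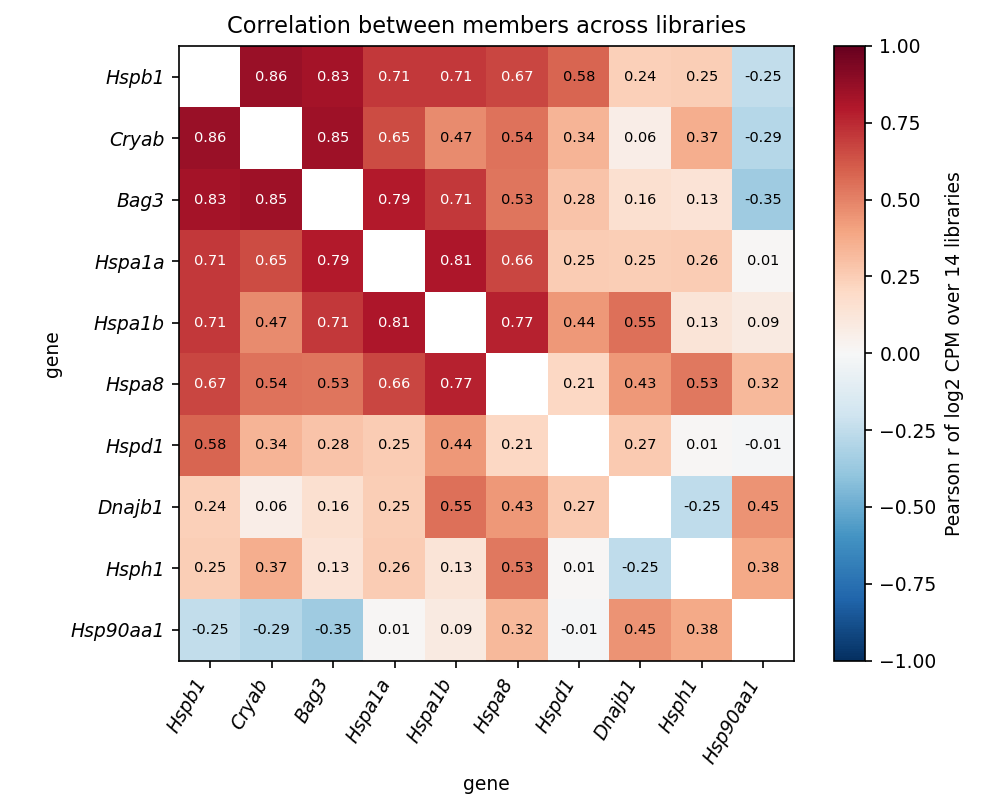
Pearson r of log2 CPM between pairs of chaperone genes over the 14 libraries (rows and columns are genes, colour scale from -1 to 1). Hspb1, Cryab, Bag3, Hspa1a, Hspa1b and Hspa8 have r between 0.47 and 0.86 with each other, and Hsp90aa1 has r below 0 with Hspb1, Cryab and Bag3.

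Across the 14 libraries, which also differ by group and depth, the members did not vary as 1 unit. The median Pearson r of log2 CPM over the 45 pairs was 0.37, from -0.35 to 0.86, with 9 pairs at 0.7 or above and 5 below 0. The small heat shock proteins and Bag3 were closest, with r of 0.86 for Hspb1 and Cryab, 0.85 for Bag3 and Cryab, and 0.83 for Hspb1 and Bag3. Hspa1a and Hspa1b, which share reads, had 0.81. With group means removed, these pairs had 0.83, 0.84, 0.78 and 0.60. Hspa8 was less close on that scale: its r with Hspb1 went from 0.67 to 0.21, with Cryab from 0.54 to 0.25 and with Bag3 from 0.53 to 0.17, and that of Hspa1b with Cryab from 0.47 to 0.27. The neighbours Hspd1 and Hspe1 had 0.84, and Cryab and Hspb2 0.85. In both neighbour pairs the annotated genes overlap on opposite strands, and the use of strand in counting is not given, so reads of the overlap may be shared. Among 13617 other genes with a mean of at least 5 CPM, the 10 most like the members' mean profile were Rbm28 (r 0.93), Med29 (0.92), 2410004B18Rik (0.91), Prkrip1 (0.90), Scx (0.89), Notch4 (0.89), 2010320M18Rik (0.88), Dcakd (0.87), Polr2c (0.86) and Dnttip2 (0.86).

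Each member was also set against the mean log2 CPM of the muscle list and of the immediate early list, 20 relations over 14 libraries. None passed Benjamini-Hochberg adjustment in a permutation test that shuffled all 14 libraries regardless of group. Differences between groups thus enter these tested relations. The smallest p was that of Hspa1b with the immediate early list (r = 0.760, permutation p = 0.00367, adjusted p = 0.0734; rho = 0.604, permutation p = 0.0250, adjusted p = 0.250), and r was 0.50 without OVX-PBS replicate 1 and sham replicate 2, the libraries farthest from the median on both lists. It was 0.32 without OVX-PBS replicate 1 and OVX-HA replicate 2. For the muscle list, Hsp90aa1 had r = -0.633 (permutation p = 0.0152, adjusted p = 0.152) and rho = -0.711 (permutation p = 0.00581, adjusted p = 0.116). Without OVX-PBS replicate 1 and sham replicate 2 its r was -0.55. Bag3 had r = 0.532 (permutation p = 0.0504, adjusted p = 0.216; rho = 0.521, permutation p = 0.0593, adjusted p = 0.330) and Cryab r = 0.511 (permutation p = 0.0626, adjusted p = 0.216; rho = 0.459, permutation p = 0.0995, adjusted p = 0.330). Without OVX-PBS replicate 1 and sham replicate 2, r was 0.51 for Bag3 and 0.60 for Cryab. With group means removed, r with the muscle list was 0.72 for Cryab, 0.68 for Hspb1, 0.63 for Bag3 and -0.60 for Hsp90aa1. On that scale Hspa1b with the immediate early list had 0.77, and the other relations lay between -0.51 and 0.58. These values were not tested.

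Other genes of protein folding were followed on lists by compartment. Of the heat shock factors, Hsf1, the main activator of the response, averaged 43.5 ± 4.00 CPM with PBS (SD), 42.8 ± 2.26 with HA, 38.9 ± 1.39 with PPA and 40.4 ± 3.54 with ZA. None of Hsf1, Hsf2, Hsf4 and their regulator Hsbp1 had an unadjusted p below 0.05 in any comparison. Of 31 other cytosolic chaperones and co-chaperones, 23 averaged above sham in OVX-PBS, with a median log2 difference of 0.087. Against OVX-PBS, 19 were lower with HA, 26 with PPA and 28 with ZA, with medians of -0.014, -0.10 and -0.12. Chordc1, an HSP90 co-chaperone, was the only one with an unadjusted p below 0.05, at 0.23 in OVX-PBS against sham (edgeR adjusted p = 0.913).

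The 8 subunits of the TRiC chaperonin, which folds actin and tubulin, all averaged above sham in OVX-PBS, with a median of 0.11. All averaged below OVX-PBS under PPA and under ZA, with medians of -0.10 and -0.13. Under HA most were below OVX-PBS too, with log2 differences from -0.12 to 0.015. In each of the comparisons 0 of 8 had an unadjusted p below 0.05. The list's mean log2 CPM was 6.925 to 7.121 in OVX-PBS and 6.907 to 7.134 with HA. It was 6.874 to 6.951 with PPA and 6.844 to 6.944 with ZA, so each overlapped OVX-PBS. Of 10 mitochondrial chaperones and proteases, 9 averaged above sham in OVX-PBS, with a median of 0.076. All 10 averaged below OVX-PBS under each of the 3 agents, HA, PPA and ZA, with medians of -0.21, -0.19 and -0.14 and 0 of 10 with an unadjusted p below 0.05. The mean log2 CPM of this list ran from 5.777 to 6.244 in OVX-PBS. It was 5.782 to 5.925 with HA, 5.784 to 5.966 with PPA and 5.879 to 5.951 with ZA. The lowest OVX-PBS library was thus below every treated library. Of all genes tested, 46.8, 53 and 56.2% averaged below OVX-PBS in these 3 comparisons. Of 6 other small heat shock proteins, 5 averaged lower in each treated group than in OVX-PBS. Among them Hspb6, a muscle small heat shock protein, averaged 662 ± 183 CPM in OVX-PBS and 480.4 ± 65.8 in OVX-PPA.

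Of 19 genes of the endoplasmic reticulum list, 14 averaged above sham in OVX-PBS, with a median of 0.079. Against OVX-PBS, 17 averaged lower under PPA and 18 under ZA, with medians of -0.16 and -0.12. Under HA most averaged lower too, with log2 differences from -0.22 to 0.067. Serpinh1, the collagen chaperone HSP47, averaged 154 ± 19.9 CPM after sham surgery, 226 ± 43.9 with PBS and 139 ± 9.49 with ZA. Its log2 difference was 0.56 for OVX-PBS from sham (edgeR adjusted p = 0.913) and -0.70 for OVX-ZA from OVX-PBS (adjusted p = 0.899). Herpud1, which takes part in degradation of misfolded proteins, differed by 0.24, -0.34 and -0.24 for OVX-PBS from sham, OVX-PPA from OVX-PBS and OVX-ZA from OVX-PBS, each with an unadjusted p below 0.05 and an adjusted p of at least 0.899. Creld2, a gene induced by stress of this compartment, averaged 17.3 ± 0.866 CPM with PBS, 16.7 ± 4.46 with HA and 11.6 ± 0.945 with PPA. Both OVX-PPA libraries were below every OVX-PBS and OVX-HA library, with log2 differences of -0.58 and -0.53 (unadjusted p below 0.05, edgeR adjusted p = 1.00 for each). Hspa5, the main HSP70 of this compartment, differed by -0.29 in OVX-ZA from OVX-PBS, also with an unadjusted p below 0.05. No gene of any chaperone list passed an FDR of 0.05 in any of the 5 comparisons, as no gene of the whole table did, and the lists' comparisons with OVX-PBS share its libraries.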

How the data were processed

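Per the labels' protocols, libraries of tibia poly(A) RNA were made with a stranded ligation kit and sequenced on a NextSeq 500 (single reads, 75 nt). The submitters' processing notes name STAR 2.7.8a, Bowtie2 2.2.5, Partek, CASAVA 1.8.1 and mm10, without roles. Annotation, counting tool and any use of strand were not given in the sources. The authors deposited a table of estimated counts per gene symbol, not normalized, and 20.7% of its values were over 0.01 away from a whole number. A second table that the authors deposited holds log2 values after TMM scaling, which equal log2 of the count plus 1e-04 minus a constant per library to within 0.0055, and it served only as a check.

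Estimated counts were rounded and fitted with edgeR 4.0.16 (R 4.3.3), as a quasi-likelihood model with a mean per group over all 14 libraries, after filterByExpr and TMM scaling. Tests were two-sided, with Benjamini-Hochberg adjustment over 21761 genes and a threshold of FDR 0.05. Residual degrees of freedom were 9, and the biological coefficient of variation was 25.0%. Totals per library ran from 11896820 to 35418060 counts, which limits the low genes most. Log2 CPM used a prior count of 2, and correlations used 100000 permutations. Groups came from the treatment label. The labels do not say that libraries are separate mice, so p-values measure the spread between these libraries. Replicate numbers were not treated as pairs of libraries in the main fit. Symbols were matched to GENCODE M21 (96.4%), and promoter windows came from RefSeq. The edgeR script was tested on simulated data.

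The members and the gene lists were chosen with earlier results of these data known. All members are named, with at most 3 genes per other list and comparison, those with the smallest unadjusted p, plus Hspe1 and Hspb2, neighbours in the genome. Alternatives were DESeq2 1.42.0, limma 3.58.1 with trend, DESeq2 size factors in edgeR, no filter, a replicate block, only the groups compared, and libraries left out. Alternatives for single members in OVX-PPA against OVX-HA were added after seeing the data.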

Additional observations from a re-analysis of the deposited data

How the results depend on the processing

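No member passed an FDR of 0.05 in any of 1098 alternative values of 50 member differences, and 1081 of these moved by less than the SD within groups. A sign change occurred in 44 values, over 13 differences of at most 0.22 in size. Of the omissions of 1 library, that of OVX-PBS replicate 1 moved the differences of Hspa1b and Bag3 from OVX-PBS furthest. It took that of Bag3 from -0.07 to 0.08 in OVX-HA. For Hspa1a in OVX-PPA each OVX-PPA library moved the value further, and for Dnajb1 in OVX-HA replicate 2 of that group did. Leaving out several libraries moved some values more. Without the 2 libraries with few central nervous system transcripts, Hspa1b was -0.32 in OVX-PPA and -0.31 in OVX-ZA. Without the 3 libraries carrying lymph node transcripts, which leaves 1 OVX-ZA library, Bag3 was -0.09 in OVX-ZA.

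Counts of genes past an FDR of 0.05 depended on the tool. In OVX-PBS against sham, DESeq2 called 1 gene against 0 with edgeR. In OVX-ZA against OVX-PBS, where edgeR called 0, DESeq2 called 32, limma 1 and edgeR without the filter 3. There edgeR called 6 without the 2 libraries with few central nervous system transcripts, and 1 with only the 2 groups. Leaving out 1 library gave 0 to 12, with 12 without OVX-HA replicate 2 and 1 without OVX-ZA replicate 2. For any difference among the 5 groups, where edgeR called 1, DESeq2 called 50, limma 0 and edgeR without the filter 5. In that test edgeR called 5 without the 2 libraries with few central nervous system transcripts. Leaving out 1 library gave 0 to 7, with 7 without OVX-HA replicate 2. The cause was not tested. OVX-HA, OVX-PPA against OVX-PBS and OVX-PPA against OVX-HA stayed at 0 under each alternative run.

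At an unadjusted p below 0.05, edgeR, DESeq2 and limma gave 594, 615 and 552 genes in OVX-PBS against sham, 319, 330 and 300 in OVX-HA, 408, 374 and 454 in OVX-PPA, 731, 685 and 811 in OVX-ZA, each against OVX-PBS, and 260, 267 and 258 in OVX-PPA against OVX-HA. With edgeR and 1 library left out, these counts ran from 269 (without OVX-PBS replicate 1) to 1546 (without sham replicate 3), from 154 (OVX-PBS replicate 1) to 2813 (OVX-HA replicate 2), from 229 (OVX-PBS replicate 1) to 890 (OVX-PBS replicate 3), from 413 (OVX-PBS replicate 1) to 1757 (OVX-HA replicate 2), and from 229 (OVX-PBS replicate 2) to 1084 (OVX-HA replicate 2). The shares of all genes set beside the members move with them, in OVX-HA from 1.47 to 13% without OVX-HA replicate 2, where 0 members had such a p. With 1 library left out, the members with such a p numbered 0 to 3, 0 to 1, 1 to 3, 1 to 4 and 0 to 3 in the same order, and 0 in OVX-PPA against OVX-HA with the replicate block. Libraries with the same number correlated between -0.55 and 0.43 over 13 pairs in their deviations from the group means, so the numbers are not taken as pairs. With the replicate block, edgeR called 0 genes for any difference among the 5 groups, against 1. Depth limits Hspa1a and Hspa1b most, the members with the fewest counts.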
